A study of Saccharomyces cerevisiae with 159 samples.

Results

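Rapamycin, bound to Fpr1, inhibits TORC1, the kinase complex that couples ribosome production and nitrogen use to nutrients in budding yeast. In growing cells TORC1 keeps the genes for ribosomal proteins and ribosome assembly factors on, through Sch9 and Sfp1, and it keeps the GATA factors Gln3 and Gat1, which activate genes for the use of poor nitrogen sources, in the cytoplasm. Inhibition is known for the fall of the first group and the rise of the second, together with Gcn4 targets for amino acid synthesis and stress genes of the Msn2/4 type. The late hours of such a treatment were examined here, by setting cells at 5 h of rapamycin against cells at 2 h, with 3 h and 4 h between them, and by asking which genes came back toward their level before the drug and which moved further from it.

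The members are the 8 RNA-seq libraries labelled diploid at 2, 3, 4 and 5 h, 2 per time point, out of 24 libraries of the rapamycin experiment and 159 in the series. They were chosen by strain label and time, without using any measured value. The strain is a W303 diploid labelled MATa/alpha, and the haploid cells set beside it are MATa; both carry ade2-1, trp1-1, can1-100, ura3, leu2-3 and his3-11,15, are GAL and psi+, and grew in YEPD at 30 °C. The 0 h libraries are log-phase cells without drug and the others had 5 nM rapamycin per the labels, although a legend of the study's supplement names a lower concentration for the diploid cells. Total RNA was sequenced without mRNA enrichment. The labels do not say whether the 2 libraries of a group came from separate cultures, so p-values measure the spread between these libraries, which may be technical. A legend of the study gives its cell volume and ribosome measurements of haploid cells in rapamycin as performed once, and no source used here speaks of separate cultures for the RNA libraries. In a bulk culture, fewer cells carrying a transcript and less of it per cell cannot be told apart.

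The deposited unit is log2(TPM + 1), which keeps no read depth, so the depth is unknown. The rRNA took 80.8% to 83.6% of the TPM over the 24 libraries, and of the TPM of open reading frames between 69.88% and 75.02% went to 7 frames that lie within the rDNA at 2 to 5 h in the diploid-labelled cells. Values below are therefore log2(value + 1) after each library's other nuclear open reading frames were rescaled to a total of 1000000, called log2 levels here, and differences are differences of these levels. Of 6678 frames, 1012 to 1145 were listed at 0 in each of the 8 libraries. Replicates correlated at 0.651 to 0.774 across genes, and the lowest value was that of the diploid-labelled libraries at 5 h. The SD of the difference between the libraries of a group was also largest there, 2.09 against 1.72 to 1.93 in the other groups. The test used below gives all groups 1 shared spread per gene, which does not carry this wider spread at 5 h by itself.

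The a-specific and haploid-specific genes, taken as groups, went against the MATa/alpha part of the diploid label. MFA1, which encodes the a-factor precursor, lay between 6.77 and 9.83 in the 12 libraries labelled diploid and between 7.23 and 10.03 in the 12 haploid libraries, and STE2, the receptor of a cells, lay between 7.35 and 8.87 and between 7.48 and 8.78. An a/alpha diploid represses these genes. GPA1, a haploid-specific subunit of the pheromone-coupled G protein, lay between 5.44 and 6.96. The summed level of 7 a-specific genes was 10.31 to 11.25 in the libraries labelled diploid and 10.28 to 11.63 in the haploid libraries, and that of 12 haploid-specific genes was 9.64 to 10.60 and 9.52 to 10.40. Single markers were mixed. The a-specific AGA2 was listed at 0 in 6 of the 12 libraries labelled diploid and in 1 of the 12 haploid libraries. The haploid-specific STE18 was at 0 in none and in 4. MATALPHA2, with the same values as its copy HMLALPHA2, was at 0 in 1 and in 4. MF(ALPHA)1, the alpha-factor gene, was listed at 0 in all 24, which does not bear on the label, since an a/alpha diploid keeps it off too. These genes report mating type, so they do not test the number of genome copies. The paper reports a larger mean cell volume for its diploid than for its haploid cells throughout the rapamycin experiment. The cells are called diploid-labelled below.

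The promoters of 5 genes are shown first. They come from preset gene lists, not from groups found by their movement. Chosen were the members with the largest late changes among those that passed the test and held the motif of their list. GDH3 moved against most of its list. The windows searched were the 300 bases before each start codon, read on both strands in 5700 genes of the RefSeq R64 genome (sacCer3), and the first 200 bases of each are printed, up to base 101 before the start codon, 5′ to 3′ on the gene's own strand. Capitals mark the motif. In the ribosome assembly genes these are the core of the RRPE element, AAATTTT, to which Stb3 binds, and of the PAC element, GATGAG, to which Dot6 and Tod6 bind. CGR1 and RRS1, factors for the large ribosomal subunit, lie at chrVII:439763-439962 and chrXV:868040-868239, both on the plus strand. Overlapping matches of AAATTTT to the strands of AAAATTTT count as separate matches.
CGR1: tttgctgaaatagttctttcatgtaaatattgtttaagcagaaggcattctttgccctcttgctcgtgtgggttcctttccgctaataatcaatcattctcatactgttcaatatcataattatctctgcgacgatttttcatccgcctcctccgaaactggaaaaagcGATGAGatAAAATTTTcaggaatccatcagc
RRS1: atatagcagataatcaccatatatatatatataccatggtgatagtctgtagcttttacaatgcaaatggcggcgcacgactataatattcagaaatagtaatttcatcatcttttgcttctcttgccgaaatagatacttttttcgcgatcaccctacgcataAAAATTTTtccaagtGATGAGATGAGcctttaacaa
In the nitrogen genes the capitals mark GATAAG, the GATA factor motif. DAL7, for malate synthase of allantoin use, lies at chrIX:414780-414979 on the minus strand, and GDH3, for an NADP-dependent glutamate dehydrogenase, at chrI:31267-31466 on the plus strand.
DAL7: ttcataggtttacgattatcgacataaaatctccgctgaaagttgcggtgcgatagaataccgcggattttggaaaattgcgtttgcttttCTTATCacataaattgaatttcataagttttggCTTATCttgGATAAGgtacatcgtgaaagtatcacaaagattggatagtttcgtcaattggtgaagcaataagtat
GDH3: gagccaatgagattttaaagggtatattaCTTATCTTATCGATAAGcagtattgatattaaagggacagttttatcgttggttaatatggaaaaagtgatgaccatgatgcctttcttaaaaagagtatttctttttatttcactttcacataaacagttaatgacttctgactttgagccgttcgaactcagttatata
In ARG56, which encodes a precursor of enzymes of arginine synthesis (chrV:295110-295309, plus strand), the capitals mark TGACTC, the core of the Gcn4 site.
ARG56: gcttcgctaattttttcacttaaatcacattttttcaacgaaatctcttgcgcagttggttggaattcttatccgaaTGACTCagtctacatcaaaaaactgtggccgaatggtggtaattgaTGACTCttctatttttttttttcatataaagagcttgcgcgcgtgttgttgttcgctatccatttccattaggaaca

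Between 2 h and 5 h, 433 of 6176 genes tested differed (limma, Benjamini-Hochberg adjusted p under 0.05), with 225 higher and 208 lower at 5 h. That is 7.01% of the genes tested, 3.64% higher and 3.37% lower. In counts below, genes that rose or fell, or were higher or lower, are those that passed at this threshold. The genes that rose were led by those for making ribosomes, and those that fell by genes for amino acid synthesis and for the use of poor nitrogen sources. In all 433 the 2 libraries at 5 h did not overlap with the 2 at 2 h, which was so for 47.8% of all genes tested. The median difference of all genes was -0.06. The balance of higher and lower genes depended on the scaling. With the frames inside the ribosomal DNA kept in the total, 189 genes were higher and 398 lower and the median was -0.29; with the deposited values the counts were 248 and 402 of 4740 genes. Scaled to the 4 spike-in rows of the table, whose addition the methods do not describe, 136 were higher and 724 lower and the median was -0.55. The ratio of these frames to the spike-in rows was 3.03 and 3.20 at 2 h and 2.17 and 2.20 at 5 h; what share of this is RNA content was not tested.

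Of the 433 genes, 347 (80.1%) were nearer their 0 h level at 5 h than at 2 h, against 59.9% of all genes tested. A further 53 (12.2%, against 30.7% of all genes) lay further from it on the same side, and 33 (7.62%, against 9.42%) had crossed it and lay further away on the other side. Among the 347, 177 rose and 170 fell. The 177 had been lower at 2 h than at 0 h by a median of -3.38 and rose by a median of 2.05, and 74 of them still differed from 0 h at 5 h. The 170 had been higher by a median of 2.23 and changed by a median of -1.20, and 101 still differed at 5 h. The test of 5 h against 2 h and the distance to 0 h share the 2 h and 5 h libraries.

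**Figure D1:**
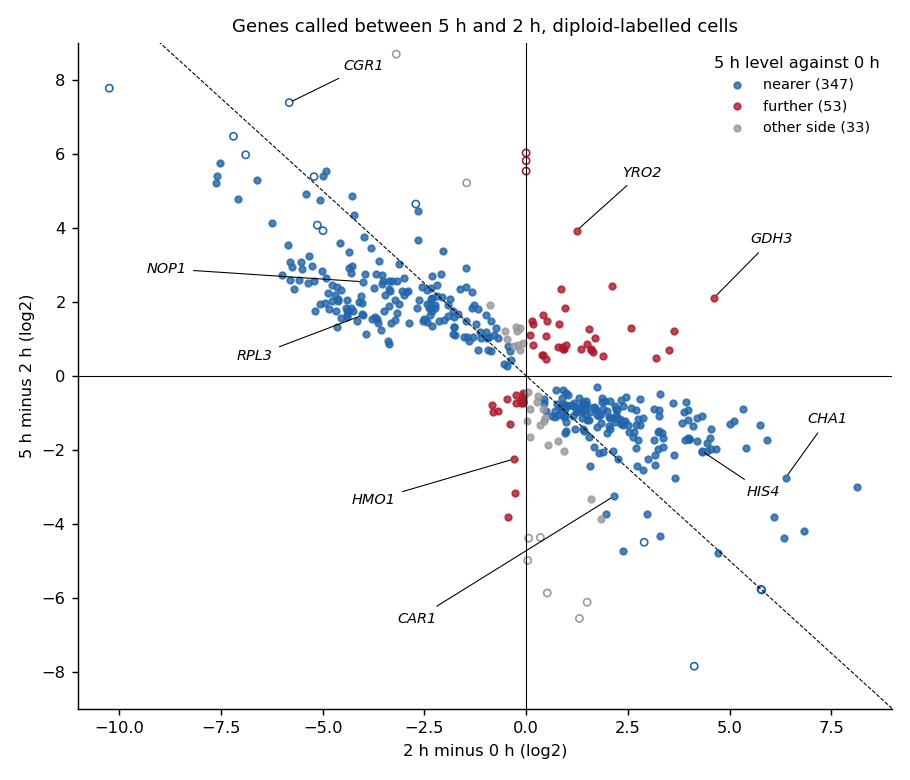
Each point is 1 of the 433 genes that differed between 5 h and 2 h, with the difference 2 h minus 0 h on the horizontal axis and 5 h minus 2 h on the vertical axis, both in log2 units. Blue points (347) came nearer to 0 h, red points (53) moved further away and grey points (33) crossed to the other side; open circles had both libraries of 2 h or of 5 h listed at 0, and a point on the dashed line was back at its 0 h level at 5 h.

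The 3 h and 4 h levels do not enter the difference between 5 h and 2 h, although these libraries share its estimate of the spread. Among the 225 genes that rose, the mean at 4 h lay above that at 3 h in 171 (76%), against 45.3% of all genes, and among the 208 that fell it lay below in 160 (76.9%), against 53.1%. The means of 2, 3, 4 and 5 h stood in rising order in 143 of the 225 (63.6%) and in falling order in 122 of the 208 (58.7%). Such an order needs 5 h to lie above or below 2 h, which the choice of these genes already fixed, and it was found in 16.8% of all 2844 genes with a higher mean at 5 h than at 2 h and in 16% of the 3235 with a lower one. A straight line fitted from 2 to 5 h passed the test for 438 genes (7.09% of those tested, 3.64% rising and 3.45% falling), of which 393 were among the 433. Its slope weighs 2 h and 5 h most, so this overlap is largely built in and is no separate support. Single hours gave fewer calls. With limma, 63 genes differed between 3 h and 2 h, 9 between 4 h and 3 h and 16 between 5 h and 4 h, and at an unadjusted p under 0.05 there were 624, 432 and 616.

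Return was larger, as a share, among genes that had fallen than among those that had risen, but this order depended on the scaling. Of the 451 genes lower at 2 h than at 0 h (7.3% of the genes tested), 37.5% rose and 0.887% fell from 2 to 5 h. The median member had regained 58.9% of its early loss (quartiles 36.4% to 78.4%). At 5 h, 182 (40.4%) still passed the test as lower than at 0 h, and the median difference from 0 h was -1.06. A gene that no longer passed had not thereby returned to its 0 h level. Of the 1551 genes higher at 2 h (25.1%), 10.4% fell and 1.48% rose, and the median member had given back 20.7% of its gain (quartiles 1.98% to 41.5%). At 5 h, 1062 (68.5%) still passed the test as higher than at 0 h, and the median difference from 0 h was 1.59. The balance at 2 h also depended on the scaling, since centring each library on its median gave 731 lower and 859 higher genes, with median shares of 41.1% and 26.9%. With the deposited values these shares were 35.7% and 38.7%, and with spike-in scaling 36.8% and 45.1%, so that the order turned. Because the 2 h libraries enter both sides of this ratio, genes were also chosen at 1 h, whose libraries are in neither. The 467 genes lower at 1 h than at 0 h (7.56%) had a median late difference of 1.29, with 130 higher and 4 lower at 5 h than at 2 h. The 1161 genes higher at 1 h (18.8%) had a median of -0.43, with 26 higher and 146 lower. With spike-in scaling the medians were 0.78 and -0.93.

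Genes for cytosolic ribosomal proteins rose from 2 h on and stayed far below 0 h. Of 137 members, 59 rose and none fell, against 3.64% and 3.37% of all genes, and the median late difference was 1.71, against -0.06 for all genes. Their median log2 level was 11.23 and 11.19 in the 2 libraries at 0 h, 9.55 and 9.64 at 1 h, 6.82 and 6.75 at 2 h, 7.30 and 7.38 at 3 h, 7.76 and 7.78 at 4 h and 8.50 and 8.57 at 5 h. The level was lowest at 2 h, each later time point lay above the one before it without overlap, and the 2 libraries of a time point were close. The 120 members changed at 2 h, 119 lower and 1 higher than at 0 h, had gone back by a median of 40.2% of that change. At 5 h, 98 of the 137 still passed the test as lower than at 0 h (4.06% of all genes did). Most ribosomal protein genes have a near-identical paralog that shares reads. In the 19 members without a paralog letter, 13 rose, none fell and the median was 1.74. With spike-in scaling 44 of the 137 rose and none fell, and the median late difference was 1.33 with the deposited values.

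RPL3, which encodes a large-subunit protein near the peptidyl transferase centre (XV:444686-445849), lay at 12.02 and 12.01 at 0 h, 8.21 and 7.80 at 2 h, 8.59 and 8.50 at 3 h, 9.25 and 8.55 at 4 h and 9.62 and 9.66 at 5 h. The 5 h libraries lay above those at 2 h and below those at 0 h. The late difference was 1.64 (SE 0.25, limma adjusted p = 0.000677), a 3.11-fold rise, and 5 h was still 2.37 below 0 h on the log2 scale. RPS3, a small-subunit protein, did not pass. It lay at 6.40 and 5.84 at 2 h and at 8.93 and 7.11 at 5 h, without overlap, with a difference of 1.90 (SE 0.60, limma adjusted p = 0.0749). RPL30, another member that did not pass, lay at 8.13 and 7.15 at 2 h and 8.77 and 9.82 at 5 h, again without overlap, with a difference of 1.65 (SE 0.50, limma adjusted p = 0.0637).

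RPL31B lay at 10.50 and 9.98 at 0 h, was listed at 0 in both libraries at 2 h, and lay at 6.11 and 6.66 at 3 h, 7.53 and 5.15 at 4 h and 7.65 and 7.89 at 5 h. RPS24B lay at 6.14 and 0 at 2 h and at 8.81 and 8.80 at 5 h, and RPS8A at 0 and 7.92 and at 9.34 and 9.40. Their late differences passed the test (limma adjusted p = 0.0146, 0.0316 and 0.0444), but a listed 0 can be a failed estimate for a gene with a near-identical copy, and no fold is given.

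**Figure D2:**
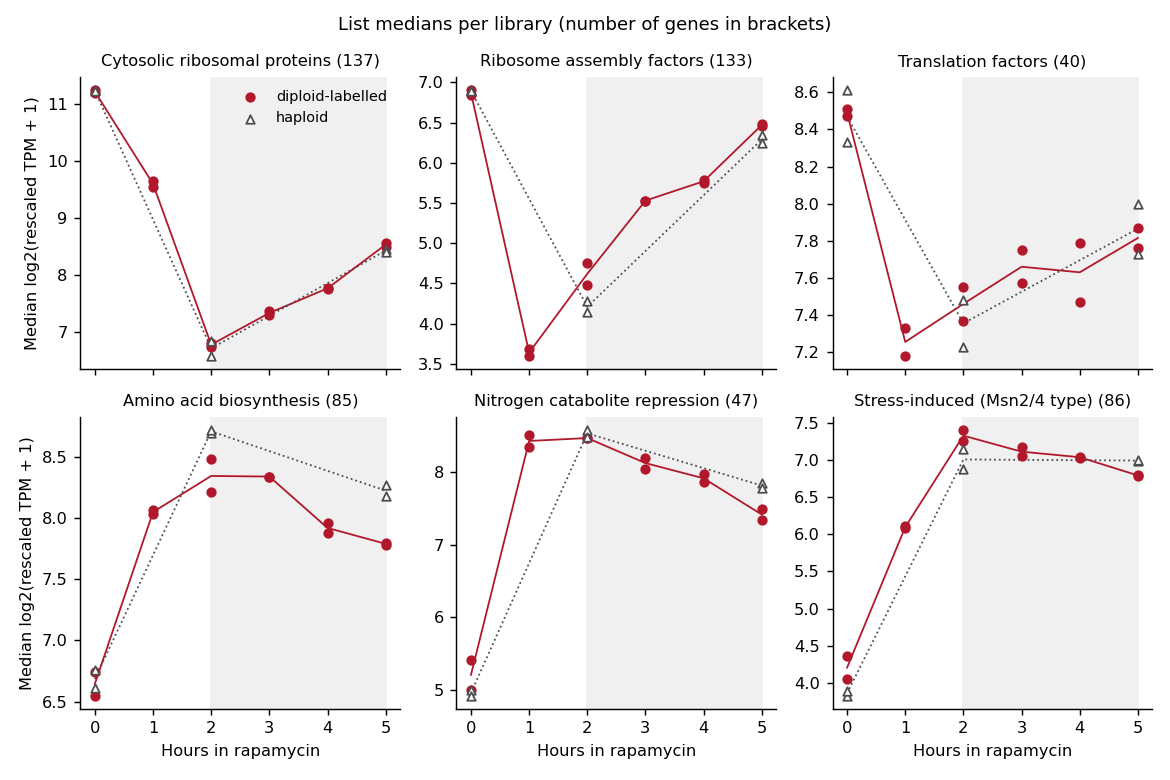
The vertical axis is the median log2 level of each gene list in each library and the horizontal axis the hours of rapamycin; filled points are the 2 diploid-labelled libraries of a time point, with a line through their means, and open triangles are the haploid libraries at 0, 2 and 5 h, joined by a dotted line. The ribosomal protein genes fell from 11.23 and 11.19 at 0 h to 6.82 and 6.75 at 2 h and reached 8.50 and 8.57 at 5 h, and assembly factors returned to 6.48 and 6.46 at 5 h against 6.84 and 6.90 at 0 h.

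Ribosome assembly factors reached their lowest level earlier and returned closer to 0 h. Of the 59 factors of the small-subunit processome and early rRNA processing, 13 rose (22%) and none fell, with a median late difference of 1.91. Of the 74 large-subunit factors, 22 rose (29.7%) and none fell, with a median of 1.88. Over all genes 3.64% rose and 3.37% fell, with a median of -0.06. In both lists together, 133 genes, the median level was 6.84 and 6.90 at 0 h, 3.60 and 3.68 at 1 h, 4.48 and 4.76 at 2 h, 5.53 and 5.53 at 3 h, 5.79 and 5.75 at 4 h and 6.48 and 6.46 at 5 h. The low point was thus at 1 h, an hour before that of the ribosomal proteins. The 69 members lower at 2 h had regained a median of 77.2%. At 5 h, 5 of the 133 still passed the test as lower than at 0 h (4.06% of all genes did). The median difference from 0 h was -0.44, so the typical member still lay somewhat below it. The late median of the small-subunit list was 1.41 and that of the large-subunit list 1.37 with spike-in scaling.

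NOP1, the rRNA 2′-O-methyltransferase fibrillarin, lay at 9.88 and 9.46 at 0 h, 4.70 and 5.51 at 1 h, 5.94 and 5.38 at 2 h, 7.23 and 6.72 at 3 h, 7.34 and 7.26 at 4 h and 8.24 and 8.16 at 5 h. Levels at 5 h lay above all those from 1 to 4 h and below 0 h. The late difference was 2.54 (SE 0.32, limma adjusted p = 0.000151), a 5.82-fold rise. PWP2, a scaffold protein of the processome, lay at 3.49 and 2.21 at 2 h and 5.94 and 5.58 at 5 h, a difference of 2.91 (SE 0.65, limma adjusted p = 0.0129). NOP56, a core protein of box C/D particles, lay at 5.38 and 4.35 and then at 6.84 and 6.30, without overlap, and did not pass (1.70, SE 0.68, limma adjusted p = 0.167).

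The 2 factors whose promoters are printed above, CGR1 and RRS1, were listed at 0 in both libraries at 2 h. CGR1 lay at 7.15 and 4.48 at 0 h and at 5.03 and 6.56, 6.69 and 5.06, and 7.23 and 7.53 at 3, 4 and 5 h. RRS1 lay at 7.09 and 7.29 at 0 h and at 5.41 and 7.54 at 5 h. RRP8, an rRNA base methyltransferase, was listed at 0 at both 1 h and 2 h and lay at 5.49 and 5.16, 5.28 and 5.21, and 5.98 and 5.96 at 3, 4 and 5 h, against 7.02 and 6.76 at 0 h. All passed the test (limma adjusted p = 0.0202, 0.0294 and 1.35e-05).

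The promoter motifs named above were common in these genes. AAATTTT was found in 96.2% of the 133 assembly factor promoters, against 24.8% of all 5700, and GATGAG in 88.7%, against 19%. Both were found in 85.7%, against 7.77% of all promoters, and in 32 of the 35 assembly factors that rose. Of the ribosomal protein promoters 2.19% held both. Among all genes that rose from 2 to 5 h the share with both was 29.3%, and among those that fell 2.94%. A match is a description of letters in these windows and shows no binding.

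RNA polymerase I transcribes the 35S rRNA precursor and polymerase III the 5S rRNA and tRNAs. Of 37 subunits and factors, 3 rose (8.11%) and 1 fell (2.7%), against 3.64% and 3.37% of all genes, with a median of 0.78. RPA190, the largest subunit of polymerase I, lay at 7.95 and 8.15 at 0 h, 4.68 and 4.71 at 2 h, 6.27 and 5.60 at 3 h, 6.27 and 6.69 at 4 h and 6.99 and 7.07 at 5 h, a late difference of 2.34 (SE 0.33, limma adjusted p = 0.000346). RPA135, the second largest, rose by 2.97 (SE 0.47, limma adjusted p = 0.00111), from 3.53 and 4.09 to 6.98 and 6.57. In both genes the 2 groups did not overlap. The member that fell, RRN10 of the upstream activating factor, lay at 6.61 and 5.64 at 2 h and was listed at 0 in both libraries at 5 h.

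Of 40 translation factors, 12 rose (30%) and none fell, against 3.64% and 3.37% of all genes. The median late difference was 0.68, or 0.17 with spike-in scaling, which gave 8 higher and 2 lower. TIF4631, which encodes the scaffold eIF4G1, lay at 8.84 and 8.76 at 0 h, 6.51 and 6.24 at 2 h, 6.84 and 7.17 at 3 h, 7.16 and 7.32 at 4 h and 7.82 and 7.80 at 5 h, with a late difference of 1.44 (SE 0.22, limma adjusted p = 0.000767). Its 5 h libraries lay above all those from 1 to 4 h. TIF2, for the helicase eIF4A, lay at 6.12 and 7.73 at 2 h and 9.53 and 9.44 at 5 h (2.56, SE 0.49, limma adjusted p = 0.0046), and its near-identical copy TIF1 makes the split of reads uncertain. Of 76 listed genes for mitochondrial ribosomal proteins, none rose and 1 fell (1.32%), both below the shares of all genes, and the median was -0.19. The 1 that fell, MRPS5, was listed at 0 in both 5 h libraries. RTC6, another gene for such a protein that the list does not hold, fell too and was also listed at 0 in both.

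Genes of amino acid synthesis were the group with most falls. Of 85 members, 34 fell (40%) and none rose, against 3.37% and 3.64% of all genes. The median late difference was -0.90, against -0.06 for all genes, and spike-in scaling gave 53 falls and a median of -1.41. Their median level was 6.55 and 6.74 at 0 h, 8.07 and 8.03 at 1 h, 8.48 and 8.21 at 2 h, 8.34 and 8.34 at 3 h, 7.96 and 7.88 at 4 h and 7.80 and 7.78 at 5 h. The 5 h libraries lay below the 2 h libraries and above those at 0 h. The 55 members changed at 2 h, 49 higher and 6 lower than at 0 h, had gone back by a median of 48% of that change.

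HIS4, a histidine synthesis enzyme long used to follow Gcn4, lay at 5.46 and 6.06 at 0 h, 10.19 and 9.95 at 2 h, 9.71 and 9.78 at 3 h, 8.67 and 8.52 at 4 h and 8.05 and 8.03 at 5 h. Each time point after 2 h lay below the one before it without overlap, and from 2 to 5 h the gene fell by 2.03 on the log2 scale (SE 0.19, limma adjusted p = 6.16e-06). The list also holds ARO8 and ARO9, the aromatic aminotransferases, so it is not limited to synthesis. ARO8 fell from 11.39 and 11.37 to 8.94 and 9.31 (-2.25, SE 0.17, limma adjusted p = 4.84e-07). ARO9 fell from 9.38 and 9.12 to 6.69 and 6.30 (-2.76, SE 0.33, limma adjusted p = 9.87e-05).

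Arginine genes gave a large and a small member of the group. ARG56 lay at 6.04 and 5.60 at 0 h, 8.14 and 8.01 at 2 h and 5.41 and 6.25 at 5 h (-2.24, SE 0.29, limma adjusted p = 0.000151), so that its 5 h libraries lay on either side of the level before the drug. ARG1, argininosuccinate synthetase, kept most of its rise, at 6.21 and 6.19 at 0 h, 10.09 and 10.28 at 2 h and 9.13 and 9.38 at 5 h (-0.93, SE 0.11, limma adjusted p = 0.000109). GCN4 itself, the activator of this group, whose control is largely translational, lay at 9.85 and 10.00 at 0 h, 11.60 and 11.58 at 2 h and 11.91 and 11.75 at 5 h. Its transcript did not pass (0.24, SE 0.13, limma adjusted p = 0.324), and its sign turned with spike-in scaling (-0.27).

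TGACTC was found in 58.8% of the 85 promoters, against 7.88% of all, and in 25 of the 34 that fell. The list was drawn up for amino acid synthesis and Gcn4-type genes, so a high share follows in part from its making. Among all genes that fell from 2 to 5 h it was found in 21.6%, and among those that rose in 3.15%. Members with the motif had a median late difference of -0.96 and those without it -0.49. No difference of this kind was tested. Assembly factors with both of their motifs had a median of 1.87 and those without both 2.26, and nitrogen genes with GATAAG had -0.49 and those without it -0.37, or -0.90 and -1.76 among the 16 that changed.

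**Figure D3:**
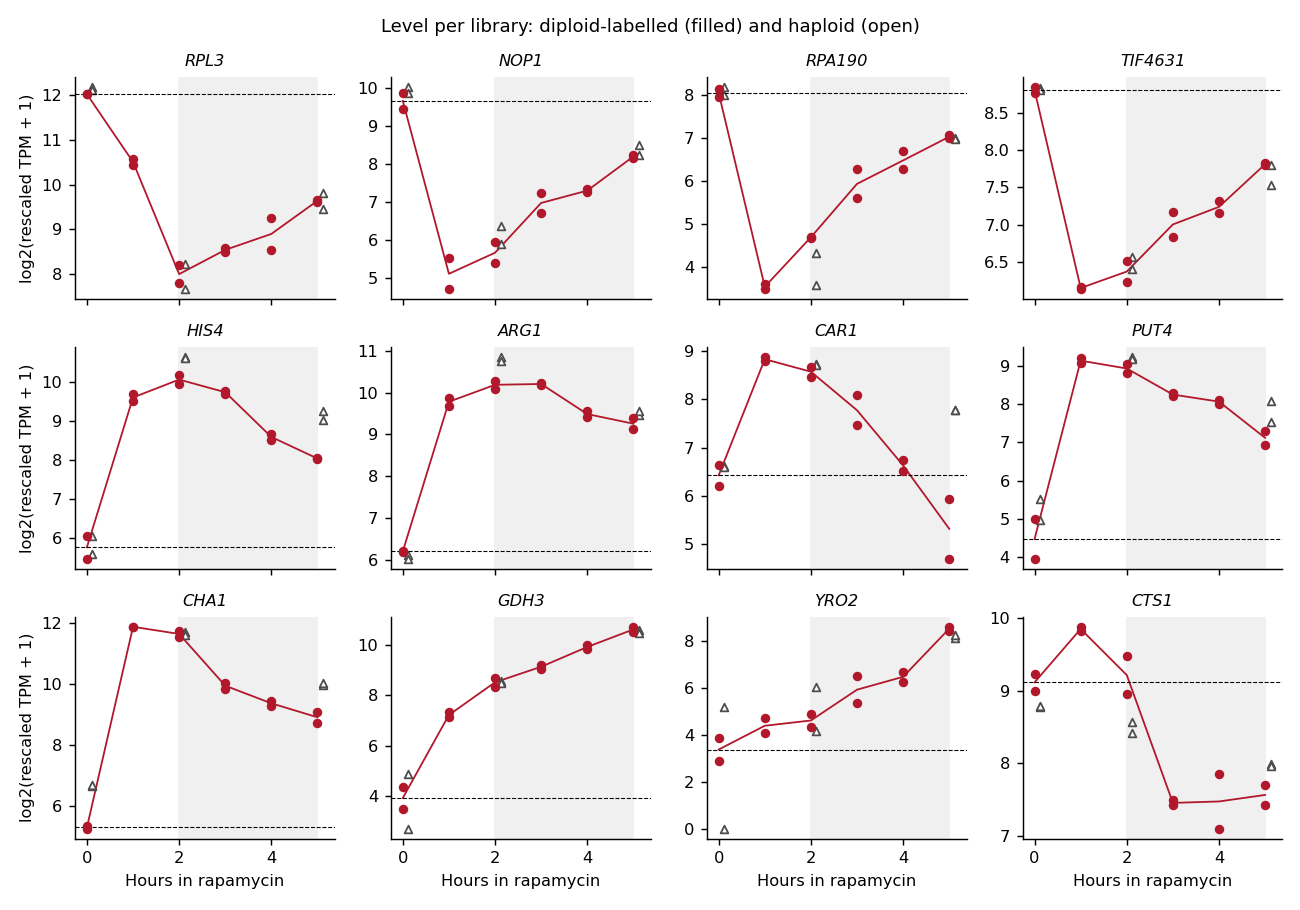
Each panel shows the log2 level of a gene against hours of rapamycin; red points are single diploid-labelled libraries with a line through the means, open triangles the haploid libraries at 0, 2 and 5 h, the dashed line the 0 h mean and the shaded span 2 to 5 h. HIS4 fell from 10.19 and 9.95 at 2 h to 8.05 and 8.03 at 5 h, RPL3 rose from 8.21 and 7.80 to 9.62 and 9.66, and GDH3 rose away from 0 h, from 8.71 and 8.34 to 10.74 and 10.53.

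Genes under nitrogen catabolite repression held more falls than rises. Of 47 members, 14 fell (29.8%) and 2 rose (4.26%), against 3.37% and 3.64% of all genes. The median late difference was -0.49, against -0.06 for all genes (spike-in scaling gave 24 falls and 1 rise). The median level was 5.00 and 5.41 at 0 h, 8.51 and 8.35 at 1 h, 8.47 and 8.47 at 2 h, 8.20 and 8.05 at 3 h, 7.86 and 7.97 at 4 h and 7.34 and 7.49 at 5 h. At 5 h, 37 of the 47 were still higher than at 0 h, against 19.7% of all genes.

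CAR1, arginase, had the largest difference between 2 h and 5 h in this list. It lay at 6.21 and 6.64 at 0 h, 8.47 and 8.68 at 2 h, 8.09 and 7.46 at 3 h, 6.51 and 6.75 at 4 h and 4.69 and 5.94 at 5 h, and ended below its 0 h libraries. The late difference was -3.26 (SE 0.33, limma adjusted p = 1.83e-05), a 9.6-fold fall. CHA1, the serine and threonine deaminase, which is in none of the lists, rose from 5.24 and 5.32 at 0 h to 11.76 and 11.55 at 2 h and then lay at 9.85 and 10.05, 9.29 and 9.45, and 9.09 and 8.73 at 3, 4 and 5 h, a late difference of -2.75 (SE 0.12, limma adjusted p = 2.64e-09).

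DAL7 lay at 5.66 and 4.44 at 0 h, 9.39 and 9.35 at 2 h and 7.19 and 7.43 at 5 h (-2.06, SE 0.26, limma adjusted p = 0.000151). PUT4, the proline permease, fell from 9.06 and 8.80 to 6.93 and 7.31 (-1.81, SE 0.29, limma adjusted p = 0.0013), and MEP2, the ammonium permease, from 10.44 and 10.36 to 9.41 and 9.59 (-0.90, SE 0.13, limma adjusted p = 0.000513). In all of these the 2 groups did not overlap, and all ended above 0 h.

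GAP1, the general amino acid permease, stayed near its 2 h level, with 10.82 and 10.85 at 2 h and 10.52 and 10.54 at 5 h (-0.31, SE 0.09, limma adjusted p = 0.0476). DAL5, the allantoate permease, lay at 11.11 and 11.14 at 2 h and at 9.16 and 9.14 at 5 h, without overlap, and did not pass (-1.98, SE 0.68, limma adjusted p = 0.0998). DAL80, a GATA repressor, lay at 8.49 and 8.55 and then at 7.26 and 6.92 and did not pass (-1.43, SE 1.06, limma adjusted p = 0.524).

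GDH3 moved the other way. It lay at 4.34 and 3.47 at 0 h, 8.71 and 8.34 at 2 h, 9.06 and 9.23 at 3 h, 9.84 and 10.03 at 4 h and 10.74 and 10.53 at 5 h, rising without overlap at each time point, with a late difference of 2.11 (SE 0.46, limma adjusted p = 0.0114). GATAAG was found in 48.9% of the 47 promoters, against 14.8% of all, and in 9 of the 16 that changed, the rising GDH3 among them. The list was drawn up for genes under this control, so a high share follows in part from its making. Among all genes that fell it was found in 27.5% and among those that rose in 8.11%.

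Of 25 amino acid permeases, 3 rose (12%) and 2 fell (8%), against 3.64% and 3.37% of all genes. MUP1, the high-affinity methionine permease, lay at 7.63 and 7.60 at 0 h, 0 and 2.74 at 2 h, 6.29 and 5.89 at 3 h, 6.29 and 5.79 at 4 h and 5.83 and 5.15 at 5 h (4.12, SE 0.74, limma adjusted p = 0.00283). At 5 h it still lay 2.12 below 0 h on the log2 scale (limma adjusted p = 0.0496).

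Stress genes of the Msn2/4 type stayed up. Of 86 members, 1 rose (1.16%) and 4 fell (4.65%), against 3.64% and 3.37% of all genes. The median late difference was -0.28, against -0.06 for all genes. Their median level was 4.05 and 4.36 at 0 h, 7.40 and 7.25 at 2 h, 7.17 and 7.05 at 3 h, 7.03 and 7.04 at 4 h and 6.78 and 6.80 at 5 h. At 5 h, 65 of the 86 were still higher than at 0 h, and none was lower, against 19.7% and 4.06% of all genes. With spike-in scaling 15 fell and none rose.

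GPP2, a glycerol-3-phosphatase of glycerol synthesis, was the member that rose, from 8.33 and 8.46 at 2 h to 9.58 and 9.62 at 5 h (1.21, SE 0.30, limma adjusted p = 0.0217), and it did not pass with spike-in scaling (0.70). GRE3, an aldose reductase, fell from 7.66 and 7.75 to 5.67 and 6.64 (-1.54, SE 0.43, limma adjusted p = 0.0412), and HSP42, a small heat shock protein, from 8.48 and 8.47 to 7.26 and 7.43 (-1.13, SE 0.31, limma adjusted p = 0.0371). HSP12 (1.07, limma adjusted p = 0.681), TPS1 of trehalose synthesis (-0.37, limma adjusted p = 0.352) and GSY2, glycogen synthase (-0.88, limma adjusted p = 0.0607), did not pass.

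The genes that moved further from 0 h were mixed in function. The 53 held 36 that rose, by a median of 1.04, and 17 that fell, by a median of -0.74. Of the 53, 27 had already differed from 0 h at 2 h, which 32.4% of all genes tested did. The 53 included 4 of the 65 retrotransposon frames tested, which share reads with one another. All 4 rose (6.15% of these frames, against 3.64% of all genes). OLE1, the fatty acid desaturase, lay at 7.80 and 7.97 at 0 h, 8.34 and 8.24 at 2 h, 8.68 and 8.66 at 3 h, 9.63 and 9.57 at 4 h and 9.94 and 9.92 at 5 h (1.64, SE 0.22, limma adjusted p = 0.000208). At 1 h it had stood at 10.80 and 10.81, above every later library. TIP1, a cell wall mannoprotein, rose from 7.34 and 7.94 at 2 h to 9.24 and 9.01 at 5 h (1.48, SE 0.27, limma adjusted p = 0.00301). HXT3, a low-affinity hexose transporter whose relatives share sequence with it, rose from 9.04 and 9.07 to 10.25 and 10.01 (1.08, SE 0.16, limma adjusted p = 0.000536). All lay outside the range of their 0 h libraries at both times.

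A few others are given here although they lie outside the rule for named genes and were chosen after their values were seen. YRO2, a membrane protein related to Hsp30, lay at 2.89 and 3.87 at 0 h, 4.89 and 4.35 at 2 h, 6.52 and 5.35 at 3 h, 6.27 and 6.70 at 4 h and 8.62 and 8.46 at 5 h (3.92, SE 1.13, limma adjusted p = 0.0492), close to the threshold. ZRT1, the high-affinity zinc transporter, rose from 8.61 and 8.89 to 9.96 and 10.05 (1.25, SE 0.20, limma adjusted p = 0.00113). HMO1, a high mobility group protein found at the ribosomal DNA and at ribosomal protein genes, went down, from 7.23 and 7.11 at 2 h to 5.70 and 4.15 at 5 h against 7.66 and 7.29 at 0 h (-2.25, SE 0.51, limma adjusted p = 0.0129). Its path was uneven, with 5.87 and 6.42 at 3 h and 6.97 and 6.70 at 4 h, and its late difference in haploid cells was 0.05. SSA2, a cytosolic Hsp70 with a near-identical copy, lay at 11.93 and 11.98 at 0 h, 11.14 and 11.13 at 2 h and 9.94 and 10.36 at 5 h (-0.99, SE 0.12, limma adjusted p = 8.34e-05).

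Genes for daughter-cell separation act on the septum after division, but the list is not limited to such genes. Of 15 members, 2 fell (13.3%) and 1, PST1, rose (6.67%), against 3.37% and 3.64% of all genes, and the median was -0.42. In haploid cells the list median was 0.08. CTS1, the chitinase that splits the septum, lay at 9.00 and 9.23 at 0 h, 8.95 and 9.48 at 2 h, 7.42 and 7.49 at 3 h, 7.85 and 7.10 at 4 h and 7.70 and 7.43 at 5 h (-1.65, SE 0.21, limma adjusted p = 0.000193). The step lay between 2 and 3 h. DSE1 lay at 6.67 and 6.43 at 2 h, 5.19 and 4.61 at 3 h and 5.65 and 4.84 at 5 h (-1.31, SE 0.33, limma adjusted p = 0.0235). The haploid late differences were -0.52 for CTS1 and 0.42 for DSE1, and neither passed.

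Cell wall genes held 6 rises (20%) and 1 fall (3.33%) of 30, against 3.64% and 3.37% of all genes. Their median was 0.26, and -0.25 with spike-in scaling (2 rises, 8 falls). Of 36 genes of ergosterol and lipid synthesis, 9 fell (25%) and 1, OLE1, rose (2.78%), with a median of -0.50. INO1, inositol-3-phosphate synthase, lay at 0 and 4.20 at 0 h, 10.35 and 10.13 at 2 h, 7.54 and 7.19 at 3 h and 7.68 and 6.81 at 5 h (-3.00, SE 0.81, limma adjusted p = 0.0371), with most of its fall before 3 h. Of 42 genes of the respiratory chain and ATP synthase, 3 rose (7.14%) and 1 fell (2.38%), with a median of 0.40, or -0.11 with spike-in scaling. QCR2, a core subunit of complex III, rose from 8.68 and 9.03 to 9.76 and 9.36 (0.70, SE 0.19, limma adjusted p = 0.0371) and did not pass with that scaling (0.19).

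Other lists held few changed members, and their shares are to be read against 3.64% higher and 3.37% lower among all genes. Of 46 genes of hexose transport and glycolysis 3 rose (6.52%) and 4 fell (8.7%), and of 11 histone genes 1 rose (9.09%). Of 34 proteasome genes 2 fell (5.88%), and of 37 autophagy genes 1 fell (2.7%). Of 41 genes of G1 and S phase 1 rose (2.44%), and of 36 retrograde and TCA cycle genes 1 fell (2.78%). Of 38 genes of iron and phosphate uptake 1 rose and 1 fell (2.63% each). None passed among 28 mitotic genes of the CLB2 cluster, 27 early meiotic genes, 24 sporulation genes, 13 genes of sulfate assimilation and 31 genes of TORC1 and its effectors, with medians of 0.61, -0.18, -0.09, 0.30 and -0.22. CLN3, the G1 cyclin (1.17, limma adjusted p = 0.287), ATG8 of autophagosomes (-0.84, limma adjusted p = 0.207), RPN4, the activator of proteasome genes (-0.48, limma adjusted p = 0.505), and IME1, the master regulator of meiosis (2.41, limma adjusted p = 0.466), did not pass.

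**Figure D4:**
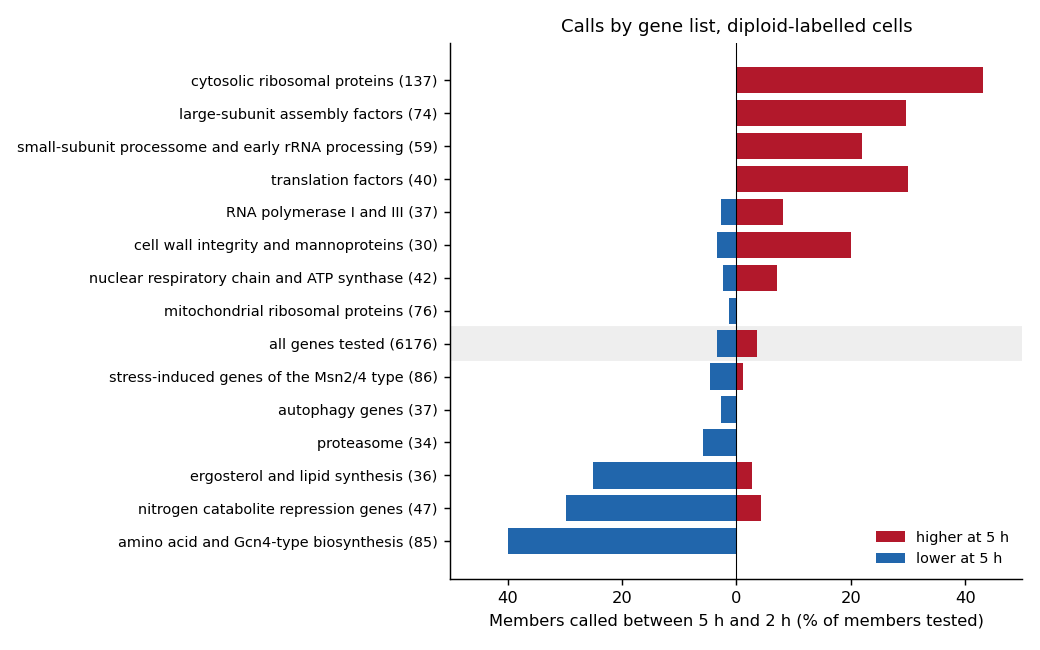
Bars show, for 14 of the gene lists and for all genes tested, the members that were higher (to the right) or lower (to the left) at 5 h than at 2 h, as a percentage of the members tested. Ribosomal proteins (43.1% higher), large-subunit factors (29.7%) and translation factors (30%) stood on the right, and amino acid synthesis (40% lower) and nitrogen genes (29.8%) on the left; over all genes 3.64% were higher and 3.37% lower.

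The single largest values came mostly from genes listed at 0 in 1 or 2 of the 4 libraries, which was so for 50 of the 433 genes. Of the 8 largest rises by the rule for named genes, 6 are given above or share their pattern: RPL31B, CGR1, RRS1, RRP8, RPS24B and RPS8A. The others were MRX7, listed at 0 in all libraries from 2 to 4 h and at 5.82 and 5.80 at 5 h, and CIS1, listed at 0 at 2 h and at 5.54 and 5.52 at 5 h. Of the 8 largest falls, RRN10, RTC6, MRPS5, AIM22 and MTF1 were listed at 0 in both libraries at 5 h, and SHH4, RTC2 and OCA6 in 1 of them. RTC6 and MRPS5 encode mitochondrial ribosomal proteins, AIM22 a lipoate ligase of mitochondria and MTF1 the specificity factor of mitochondrial RNA polymerase. In haploid cells their late differences were -0.67, 2.17, -0.77 and 0.11, in this order, and none passed. The remaining 383 genes were above 0 in all 4 libraries.

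Most of these genes moved with the same sign in haploid cells over the same hours. In them 335 genes differed between 5 h and 2 h (5.42% of those tested), 223 higher (3.61%) and 112 lower (1.81%). Of the 225 genes that rose in the diploid-labelled cells, 216 had a positive haploid difference (96%, against 47.3% of all genes), and 124 also passed there, 55.1% of the diploid-labelled list and 55.6% of the haploid list. Of the 208 that fell, 193 had a negative one (92.8%, against 51.2%), and 81 passed, 38.9% of the diploid-labelled list and 72.3% of the haploid list. The median late difference in haploid cells was 1.77 for ribosomal proteins (61 of 137 rose), 2.23 and 2.29 for small- and large-subunit factors, -0.80 for amino acid synthesis, -0.50 for nitrogen genes and -0.03 for stress genes. A test of the difference between the 2 strains' late changes called 3 genes (0.0486% of those tested, limma), with 370 at an unadjusted p under 0.05.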

How the data were processed

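The authors aligned reads and quantified genes, with STAR 2.5.3a, RSEM 1.3.0 and sacCer3 in the submitters' processing notes, and deposited log2(TPM + 1) values for 7130 rows and 159 libraries. The values were turned back to TPM, rescaled to 1000000 per library over 6678 nuclear open reading frames (7 frames inside the ribosomal DNA left out), and log-transformed again (log2, pseudocount 1). Of these frames, 6176 reached a mean of 1 over the 24 rapamycin libraries and were tested. The groups came from the labels. All 12 groups entered 1 limma fit (limma 3.58.1, R 4.3.3, empirical Bayes with a variance trend), with Benjamini-Hochberg adjustment at 0.05; the code was tested on simulated data. A gene counts as called below this threshold. Depth per library is unknown, so no counting error is given.

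The members and gene lists were chosen with earlier results of these data known. Named genes were the 8 largest rises and 8 largest falls among called, named genes, excluding retrotransposon, subtelomeric and dubious frames; the 2 largest rises and falls of each list; a fixed set; the largest called differences from the haploid cells; and the promoters' genes. Not all are printed. Alternatives were other scalings, pseudocounts, filters, fits and each library left out; spike-in scaling, a pseudocount of 16 and, for the late change, leaving out a 0 h library were added after seeing the data.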

Additional observations from a re-analysis of the deposited data

Results flagged for a closer look

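Late changes of 3 genes differed between the 2 strains when the difference itself was tested. CHA1 changed by -2.75 from 2 to 5 h in the diploid-labelled cells and by -1.67 in the haploid cells, where it lay at 11.71 and 11.62 at 2 h and at 9.96 and 10.04 at 5 h (difference -1.08, SE 0.17, limma adjusted p = 0.0358). It fell in both, and further in the diploid-labelled cells.

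RPL27A, a ribosomal protein gene with a near-identical copy, lay at 7.87 and 7.72 at 2 h and 8.93 and 8.32 at 5 h in the diploid-labelled cells, a change of 0.83. In haploid cells it rose by 3.62, from 4.71 and 4.62 to 8.45 and 8.11 (difference -2.79, SE 0.38, limma adjusted p = 0.0177). The strains stood further apart at 2 h than at 5 h.

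HXT2, a hexose transporter, stayed at 6.98 and 6.78 at 2 h and 6.71 and 7.05 at 5 h in the diploid-labelled cells, a change of 0.01, while in haploid cells it rose by 2.59, from 5.72 and 5.63 to 8.54 and 7.99 (difference -2.58, SE 0.41, limma adjusted p = 0.0358). It lay at 8.94 and 8.99 before the drug in the diploid-labelled cells. All 3 lost the call when only the groups compared were fitted and without the variance trend, and CHA1 and HXT2 also without either diploid-labelled 0 h library or without 2 h replicate 1. CHA1 further lost it with the replicate block and when each library was centred on its median. The part of strain, dose and culture in these differences cannot be told apart.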

How the results depend on the processing

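The 225 higher and 208 lower genes became 47 and 69 when only the groups compared were fitted, 136 and 724 with spike-in scaling, 398 lower with the ribosomal DNA frames, 402 lower with the deposited values, and 134 lower both with diploid libraries only and without the variance trend. Leaving out a library gave 133 to 208 higher genes (133 without either 5 h library) and 99 to 214 lower (101 and 99 without 2 h replicate 1 and 2). The 347 nearer genes became 540 (deposited), 86 (only groups compared), 685 (spike-in) and 222 to 341 with a library left out, the lowest without 5 h replicate 2, with 231 and 227 without 2 h replicate 1 and 5 h replicate 1. The 53 further genes became 13 (only groups compared), 25 (no trend) and 22 to 57, with 23 and 22 without 2 h replicate 1 and 2. The 438 trend genes became 692 (deposited), 280 (only groups compared), 878 (spike-in) and 286 to 459 with a library left out, the lowest without 2 h replicate 1. With only the groups compared, 2002 genes at 2 h became 1330 and 1469 at 5 h became 731. The 3 strain differences became 5 with the deposited values, a pseudocount of 0.1 or 16 or no filter, 0 with only the groups compared or no trend, 2 when centred and with the replicate block, and 1 to 25 with a library left out (1 without either 0 h library, 14 without 2 h replicate 2, 25 and 22 without 5 h replicate 1 and 2). The cause was not tested. Fitting only the groups compared leaves fewer libraries to estimate the spread.

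Replicate numbers did not pair the libraries: deviations of same-numbered 2 h and 5 h libraries correlated at 0.02, and the replicate block gave 221 higher and 200 lower genes. Of the 433 genes, 53 also passed when only the groups compared were fitted, 263 with diploid libraries only, 305 without the variance trend, 218 to 240 without a 2 h or 5 h library, 402 without either 0 h library, and 343 to 427 under the other scalings, pseudocounts, filters and the block. Of the 50 named genes that passed, HIS4, ARO8, ARO9, CHA1, DAL7, OLE1 and RRP8 passed under every alternative, and 19 to 23 were lost without a 2 h or 5 h library and 4 without either 0 h library, the most being without 2 h replicate 1. Relative to the median of all genes, the late difference of amino acid permeases turned to 0.14 as a mean, that of retrograde and TCA cycle genes to 0.04 without 2 h replicate 2 and 0.06 without 5 h replicate 1, and that of TORC1 genes to 0.02 without 2 h replicate 1. GCN4 turned to -0.01 with the ribosomal DNA frames and -0.27 with spike-in scaling. HXT2, at 0.01, turned to -0.23 with the ribosomal DNA frames, -0.13 (deposited), -0.03 (centred), -0.16 to 0.18 with a library left out (-0.09 without 2 h replicate 2) and -0.50 with spike-in scaling. With 2 libraries a group, each value has little protection against a single library.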
